A study of Mus musculus with 6 samples.

Results

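Nearly all mitochondrial proteins are made in the cytosol and must be carried into the organelle, and 39 genes of that route, with the chaperones and the membrane-shaping proteins that receive the cargo, are described here in C2C12 cells, an established mouse myoblast line. They were taken by name from a list, matched through GENCODE M21 symbols to the 23154 Ensembl gene IDs of the count tables, and all 39 were found. Of these, 38 had enough reads to be tested among 12509 genes. The exception was Tomm6, with 2 reads in GFP replicate 1, 1 in GFP replicate 2 and 0 in the other 4 libraries. GENCODE M21 places 76% of its exon bases in common with Gm21981 on the same strand, and a count per gene is uncertain there.

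As background, most precursors enter through the TOM complex of the outer membrane, where receptors such as TOM20, TOM22 and TOM70 hand them to the TOM40 pore. Small TIM chaperones escort hydrophobic proteins across the intermembrane space to the TIM22 carrier translocase or to the SAM complex, which inserts barrel proteins. Precursors with a cleavable presequence pass the TIM23 translocase, are pulled in by the PAM motor around mitochondrial HSP70, are cut by the matrix processing peptidase and are folded by the HSP60 and HSP10 chaperonin. MICOS and prohibitins organise the inner membrane into cristae and hold its protein complexes.

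The groups were 3 libraries from a stable line carrying pINDUCER20b-HA-NUR77 and 3 from a line carrying pINDUCER20b-GFP as the control. NUR77 is the orphan nuclear receptor encoded by Nr4a1, and the construct is switched on by doxycycline. Both lines received 1 µg/mL of doxycycline for 18 hours, so exposure to the drug was common to the groups. Each replicate was its own dish of 1 line per construct, and what separates the lines apart from the insert cannot be told apart from the construct.

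Totals ran from 13906096 to 22821446 counts per library. The counts assigned to mouse Nr4a1 did not pass the test (22.5 ± 3.03 CPM with HA-NUR77 and 20.4 ± 7.43 CPM with GFP, SD, n = 3; edgeR adjusted p = 0.698). The labels do not state the species of the insert, so this gene does not check them. Myoblast markers were present, with Myod1 at 91.6 and Des, desmin, at 2500 CPM on average in GFP. The adipocyte markers Adipoq, Plin1, Lep and Cfd were at 0 in all libraries. The summed levels of 5 macrophage markers ran from 1.94 to 3.31 CPM with HA-NUR77 and from 0.83 to 1.58 CPM with GFP. Only 2 of the 5 had enough reads to be tested. Csf1r was higher (1.35 ± 0.47 against 0.43 ± 0.29 CPM, edgeR adjusted p = 0.0443), and Cd68 did not pass (adjusted p = 0.32). Ptprc had 1 read in every library, and Adgre1 was at 0 in GFP.

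Many of the members have a short sequence in common near their start, shown here because it is known from promoters of nuclear genes for mitochondria. The letters CCGGAAG, read on both strands, are the core bound by ETS factors such as GABP. They were found in the windows of 18 of the 35 members with a RefSeq window, each running from 250 bases before to 50 after a start on GRCm38.p6. The share was 51.4%, against 20.4% of 9658 tested genes with such a window and 9.93% of all 27025 genes with one. Capitals mark these letters on either strand, and in the second Hspe1 stretch they mark AAAGGTCA. Positions are GRCm38.p6, and each stretch is written 5′ to 3′ on the strand of its gene.
Tomm22, chr15:79670718-79670860, plus strand: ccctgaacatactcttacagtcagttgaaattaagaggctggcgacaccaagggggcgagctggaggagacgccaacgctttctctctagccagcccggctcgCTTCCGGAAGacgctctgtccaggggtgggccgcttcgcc
Chchd3, chr6:33060261-33060410, minus strand: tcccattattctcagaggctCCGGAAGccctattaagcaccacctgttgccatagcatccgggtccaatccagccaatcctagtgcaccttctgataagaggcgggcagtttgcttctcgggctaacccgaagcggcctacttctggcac
Phb2, chr6:124712179-124712288, plus strand: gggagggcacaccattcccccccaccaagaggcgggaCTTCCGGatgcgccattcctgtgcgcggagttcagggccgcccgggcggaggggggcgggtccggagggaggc
Phb, chr11:95666807-95666956, plus strand: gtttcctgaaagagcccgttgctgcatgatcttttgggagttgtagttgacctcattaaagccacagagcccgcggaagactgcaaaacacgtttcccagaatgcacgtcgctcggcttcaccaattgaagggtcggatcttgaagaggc
Timm10, chr2:84826994-84827020, plus strand: gtcggcgttttCTTCCGGatcaaagaa
Timm23, chr14:32201920-32201949, minus strand: cgcgcttcccaCTTCCGGgccgcacacagc
Grpel1, chr5:36464970-36464999, plus strand: cacctcctcacCTTCCGGggctcccagaag
Hspe1, chr1:55088058-55088087, plus strand: gttctagaacCTTCCGGAAGgccccgcgcg
Hspe1, chr1:55088088-55088117, plus strand: tcccgtgggtgAAAGGTCAagtggcgtcat

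In the printed stretches of Tomm22 and Hspe1 the letters occur on both strands and overlap, which gives the palindrome CTTCCGGAAG. Timm10 has this palindrome too, after its start and outside the printed stretch, and the Hspe1 site also lies in a window of Hspd1. Phb is shown as a member with no match in its window. AAAGGTCA is the element known as NBRE, to which NUR77 binds as a monomer. It was found in the windows of 2 members, Hspe1 and Hspd1, which is 1 site on chromosome 1, against 1.11% of tested genes. Hspd1 and Hspe1 lie head to head on opposite strands. The 2 RefSeq starts of Hspd1 lie 216 bases from that of Hspe1, with the site between them, and 95 bases inside Hspe1. A longer motif known for YY1, also searched on both strands, was found in 2 members, Timm50 and Mtx1, against 1.91% of tested genes, and one known for NRF1 in 0 members against 2.38%. The other motifs searched were counted over the 34 tested members with a window. The SP1 motif was found in 5 against 25.2% of tested genes, and the CCAAT box in 13 against 43.2%. The TATA box was found in 4 against 8.71%, and a shorter YY1 core in 4 against 8.66%. Such matches describe letters in a window and are not measured binding.

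Across the 38 genes tested, 15 were higher in the libraries labelled HA-NUR77, 0 were lower and 23 did not pass (edgeR quasi-likelihood test, Benjamini-Hochberg adjusted p under 0.05). At an unadjusted p under 0.05 there were 23 higher and 0 lower, and DESeq2 and limma-voom called 15 and 14 higher and 0 lower. Of all genes tested, 12.4% were higher and 13.2% lower at the adjusted p in edgeR. No such share was computed at an unadjusted p, here or below. The changes were small: the median log2 fold change was 0.25, or 1.19-fold, against 0.01 over all genes tested, and fitted values ran from −0.15 to 0.70. Values above 0 were found for 36 members, and the exceptions were Tomm34 and Mtx1. In 27 members the 3 HA-NUR77 libraries were all above the 3 GFP libraries, and in 1, Tomm34, all below, against 23% and 22.5% of all genes tested. Summed over the 39 genes, the level was 2880, 2868 and 2949 CPM in HA-NUR77 replicates 1, 2 and 3 and 2379, 2451 and 2481 CPM in GFP. With the replicate number as a block, 27 members were higher and 0 lower, against 23.5% and 24.6% of all genes tested. When HA-NUR77 replicate 1 was left out 9 members were higher, against 5.33% of all genes tested in that fit, and 9 when GFP replicate 1 was, against 5.09%.

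**Figure D1:**
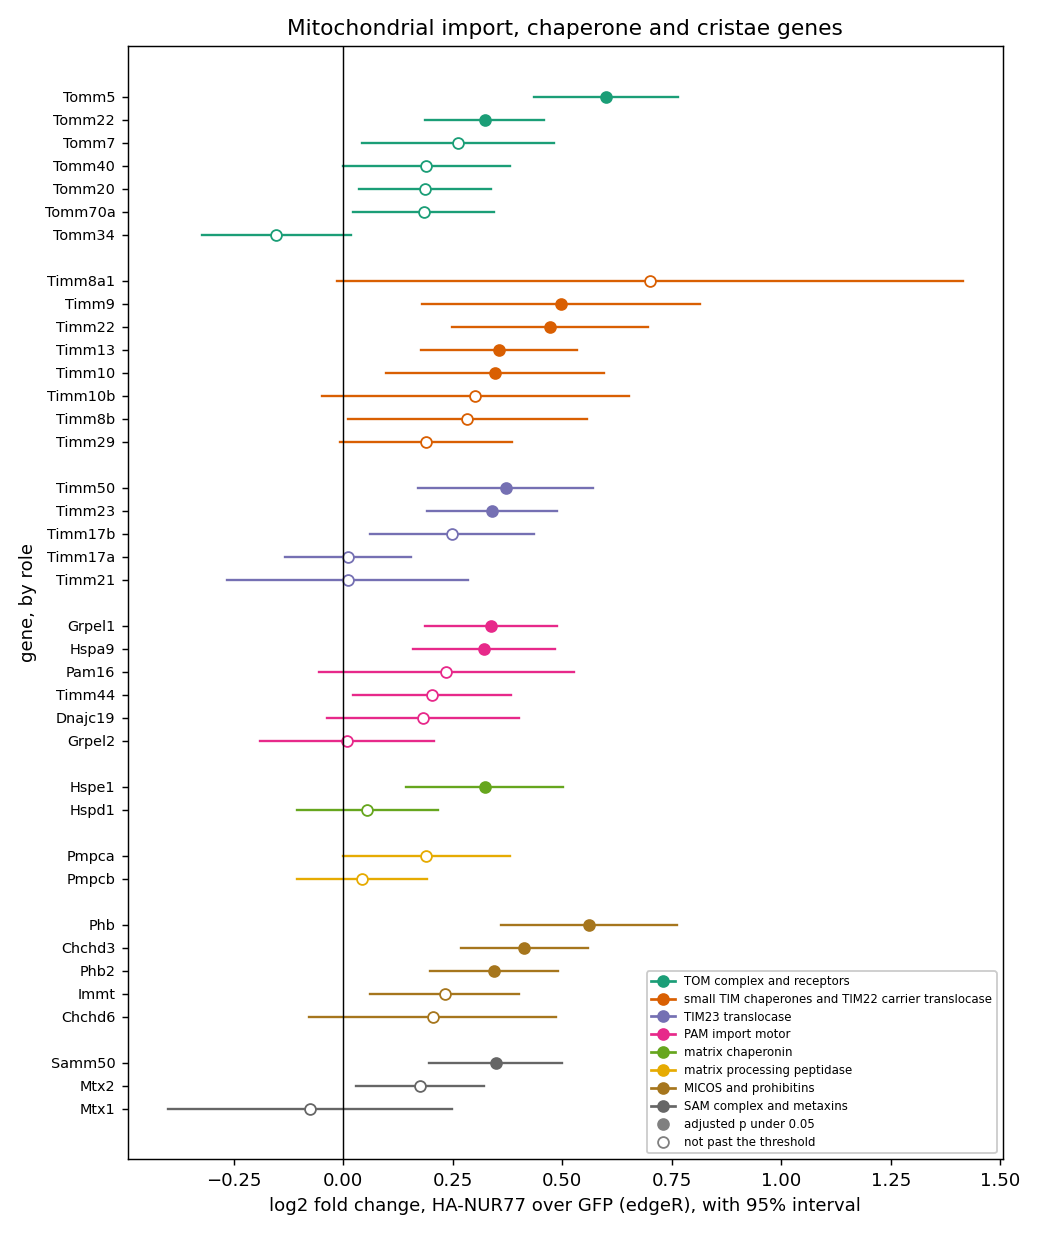
Each point is the fitted log2 fold change of 1 gene (HA-NUR77 over GFP, 3 libraries each, edgeR), the line its 95% interval, and colours give the role in import. Filled points are the 15 genes past an adjusted p of 0.05, all to the right of 0, and open points the 23 that did not pass.

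**Figure D2:**
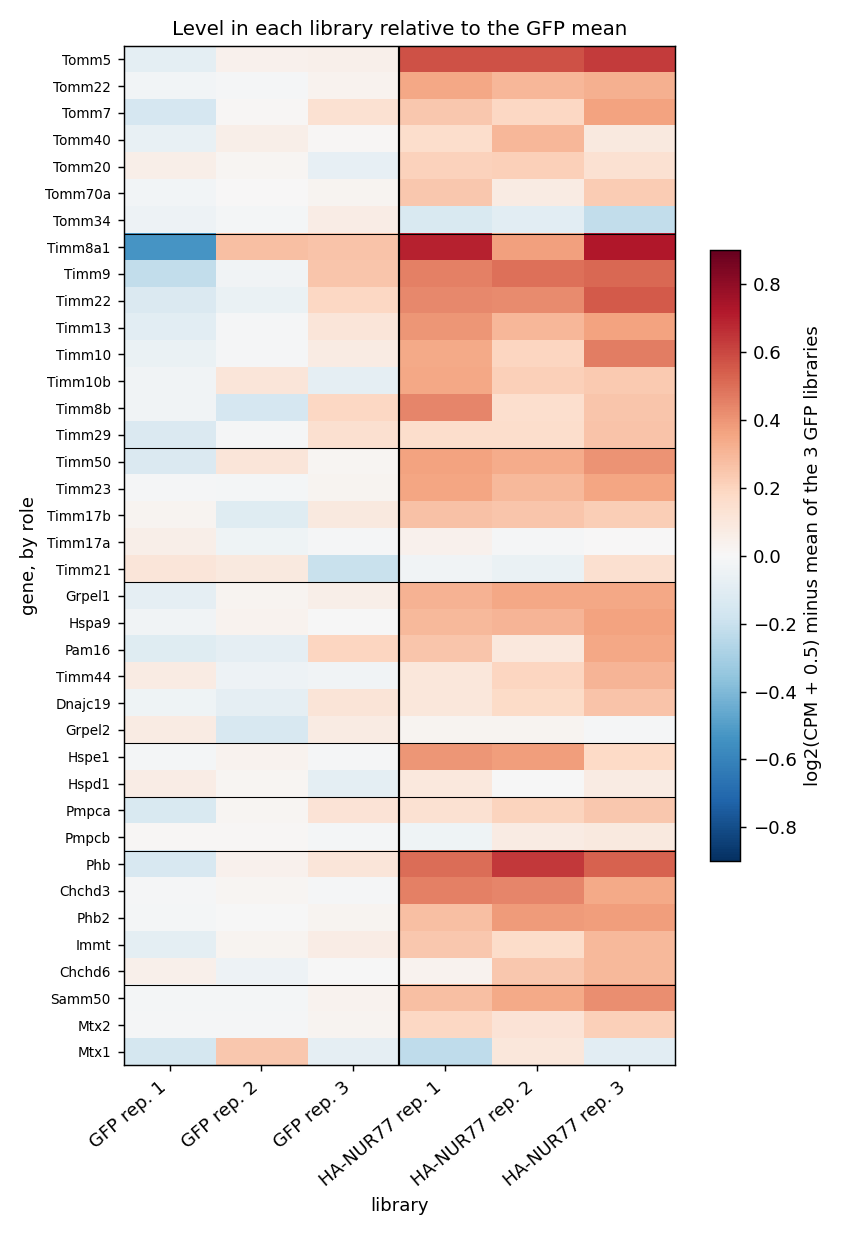
Each cell is the level of 1 gene in 1 library, as log2(CPM + 0.5) minus the mean of the 3 GFP libraries, with roles separated by lines. The median over members was 0.25, 0.22 and 0.29 in the HA-NUR77 libraries in replicate order, and lay between −0.03 and 0.03 in the GFP libraries.

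The members spanned a wide range of abundance. Levels between genes are given as CPM per kilobase of annotated exon. The most abundant was Hspa9, mitochondrial HSP70 and the engine of the PAM motor, at 102.5 ± 2.36 in GFP and 128 ± 3.56 with HA-NUR77 (CPM per kb, SD, n = 3). Hspd1, the HSP60 chaperonin, followed at 69.6 ± 3.70 in GFP. Next came Tomm22 at 47.7 ± 0.97, Timm8b at 46.0 ± 5.70 and Hspe1 at 39.1 ± 0.74 CPM per kb, of which Tomm22 and Timm8b did not differ beyond their spread. At the other end stood Timm9 at 2.15 ± 0.38, Timm8a1 at 1.10 ± 0.41 and Timm10b at 0.97 ± 0.08 CPM per kb, all small TIM chaperones, with Timm8a1 and Timm10b within each other's spread. The union of annotated exons is a crude length for genes with long alternative exons, such as Immt with 11353 bases.

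**Figure D3:**
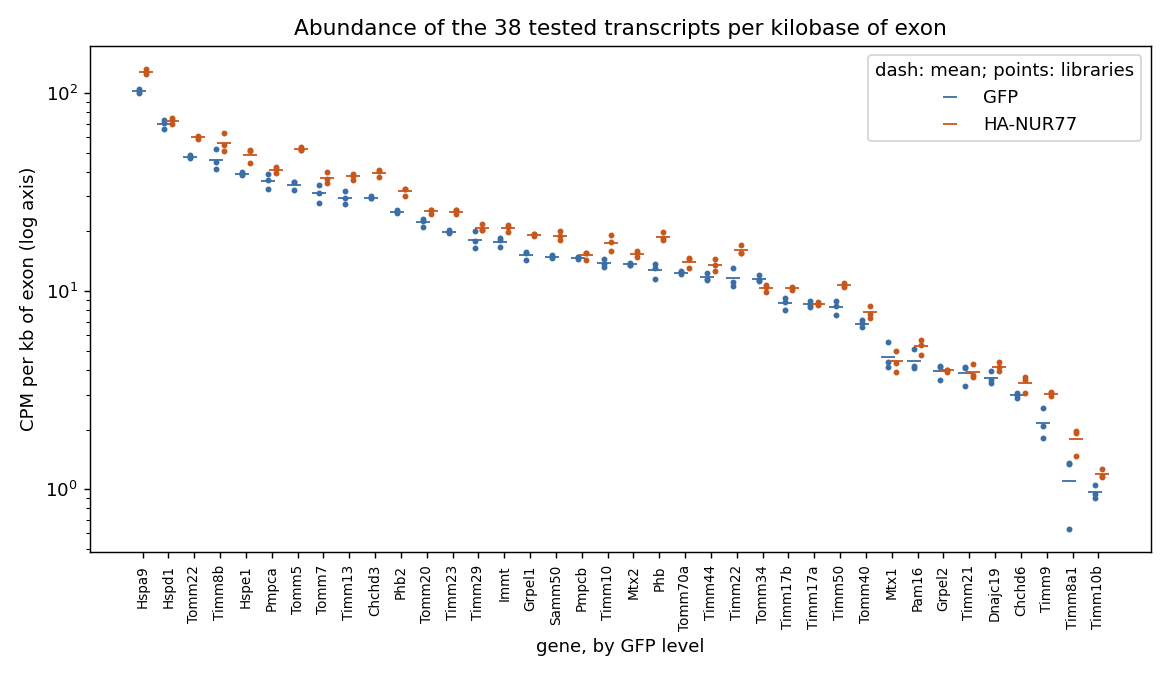
Points are single libraries and dashes group means of CPM per kilobase of exon, on a log axis, for the 38 tested genes in order of their GFP mean. Hspa9 lies highest and Timm10b lowest in both groups.

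At the outer membrane, a small subunit and the central receptor of TOM rose, and 5 other TOM genes did not pass. Tomm5 (ENSMUSG00000078713, GRCm38 chromosome 4, 45105208 to 45108114, minus strand) encodes a small subunit of the complex and was measured at 44.7, 44.7 and 46.5 CPM with HA-NUR77, values here and below being those of replicates 1, 2 and 3. With GFP it was at 28.1, 30.7 and 30.9 CPM. Every HA-NUR77 library thus lay above every GFP library, and Tomm5 rose 1.52-fold (log2 fold change 0.60, SE 0.07, adjusted p = 0.0016), the largest rise among the members that passed. With offsets for exon length and GC content its value was 0.42 (edgeR adjusted p = 0.00437). In that fit it lay below Phb at 0.52, Timm9 at 0.51 and Immt at 0.46. Tomm22, the receptor at the centre of the complex, stood at 100.1, 96.7 and 98.4 CPM with HA-NUR77 and at 77.4, 78.3 and 80.5 CPM with GFP. The groups were again apart, with a rise of 1.25-fold (log2 0.32, SE 0.06, adjusted p = 0.00847).

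The presequence receptor Tomm20 had 125.7, 126.4 and 119.7 CPM against 113.1, 110.1 and 103.5 CPM in GFP. Its groups did not overlap, yet it did not pass (log2 fold change 0.19, adjusted p = 0.069), and it did with the replicate block (adjusted p = 0.0115). Tomm7, another small subunit, the pore Tomm40 and the receptor Tomm70a had log2 fold changes between 0.18 and 0.26 with adjusted p of 0.0775, 0.126 and 0.087. Tomm7 ran from 39.7 to 44.8 CPM against 31.3 to 38.4 CPM, Tomm40 from 32.9 to 38.1 CPM against 29.5 to 32.1 CPM and Tomm70a from 127.7 to 143.4 CPM against 118.9 to 123.1 CPM, each without overlap. With the block these 3 passed (adjusted p = 0.00775, 0.0435 and 0.02). Tomm34, a cytosolic cochaperone of import and not a subunit of the pore, had a log2 fold change of −0.15 (95% interval −0.32 to 0.02, adjusted p = 0.159). Its 3 HA-NUR77 libraries, at 30.01 to 32.8 CPM, were all below the GFP libraries at 34.0 to 36.7 CPM.

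In the intermembrane space and the TIM22 carrier route, 4 of 8 genes rose and none of the other 4 had a fitted log2 fold change below 0. Timm22, the channel that inserts metabolite carriers into the inner membrane (chromosome 11, 76406952 to 76416292), was at 49.8, 49.6 and 54.1 CPM with HA-NUR77 and at 33.6, 35.2 and 41.8 CPM with GFP. That was a 1.39-fold rise without overlap (log2 0.47, SE 0.10, adjusted p = 0.0127), and GFP replicate 3 was the highest of the control libraries. Timm13, which pairs with TIM8 to escort precursors such as TIM23, was at 53.6, 50.0 and 52.3 CPM against 37.8, 40.3 and 43.6 CPM. It rose 1.28-fold (adjusted p = 0.0152). The call was lost when HA-NUR77 replicate 1 (adjusted p = 0.0614) or GFP replicate 1 (0.0565) was left out. The partners Timm9 and Timm10, which form the other hexamer of small chaperones, rose 1.41-fold and 1.27-fold.

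Timm9 had 12.7, 13.1 and 13.3 CPM with HA-NUR77 and 7.77, 8.93 and 10.96 CPM with GFP (adjusted p = 0.0336). The controls were the more scattered group, and GFP replicate 3 came nearest to the HA-NUR77 libraries. Its call was lost without GFP replicate 1 (adjusted p = 0.104), GFP replicate 2 (0.0872) or HA-NUR77 replicates 1, 2 or 3 (adjusted p = 0.0855, 0.0713 and 0.0738). Timm10 stood just inside the threshold (adjusted p = 0.0493), with 12.9 to 15.7 CPM against 10.7 to 11.8 CPM. It passed in 1 of the 6 fits that left out a library, the fit without HA-NUR77 replicate 2, and in the others its adjusted p ran from 0.0641 without GFP replicate 3 to 0.146 without GFP replicate 1. With offsets for exon length and GC content its log2 fold change was 0.13, adjusted p = 0.367.

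Timm8b, the most abundant small chaperone per kilobase, overlapped between the groups. It had 32.4, 26.4 and 28.3 CPM with HA-NUR77 and 23.1, 21.3 and 27.1 CPM with GFP (log2 fold change 0.28, adjusted p = 0.112; 0.0166 with the block). With the length and GC offsets its log2 fold change was 0.03. GENCODE gives 15.6% of its exon bases to Nkapd1 on the opposite strand as well, and no label states the strand setting of the counting. The X-linked paralog Timm8a1 had few reads, at 2.096 to 2.80 CPM against 0.89 to 1.92 CPM, and the highest fitted value of all members (log2 0.70, 95% interval −0.01 to 1.41, adjusted p = 0.13; 0.0487 with the block). GFP replicate 1 was the low library, and without it the value was 0.40. Timm29, a subunit of the carrier translocase, ran from 64.1 to 68.8 CPM against 52.5 to 63.5 CPM, and Timm10b from 4.11 to 4.55 CPM against 3.25 to 3.78 CPM. They did not pass (log2 fold change 0.19 and 0.30), and of these only Timm29 did with the block (adjusted p = 0.0207).

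The channel of the presequence translocase rose, and neither TIM17 paralog passed. Timm23, the channel-forming subunit (chromosome 14, 32180162 to 32201898), was at 45.6, 43.6 and 45.7 CPM with HA-NUR77 and at 35.3, 35.2 and 36.1 CPM with GFP. The spread within each group was small beside the gap, and the rise was 1.26-fold (log2 0.34, SE 0.06, adjusted p = 0.00966). Timm50, the receptor that takes presequences from TOM, rose 1.29-fold from 20.3, 24.0 and 22.5 CPM to 28.6, 28.1 and 29.6 CPM (adjusted p = 0.0194). This call too was lost when HA-NUR77 replicate 1 (adjusted p = 0.0641) or GFP replicate 1 (0.0645) was left out. Timm17b, a paralog of the second core subunit, had 26.7, 26.5 and 25.9 CPM against 22.5, 20.5 and 23.6 CPM, without overlap but short of the threshold (log2 0.25, adjusted p = 0.0573; 0.0185 with the block). Timm17a was at 67.2 to 69.3 CPM with HA-NUR77 and 65.6 to 70.2 CPM with GFP, with a 95% interval of the change from 0.91-fold to 1.11-fold. Timm21, which couples the translocase to TOM, ran from 13.7 to 15.9 CPM against 12.4 to 15.5 CPM, with overlap and a log2 fold change of 0.01 (95% interval −0.26 to 0.28).

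In the import motor, the most abundant member and its nucleotide exchange factor rose. Hspa9 had 539.7, 547.1 and 569.2 CPM with HA-NUR77 and 431.9, 452.2 and 441.6 CPM with GFP, a 1.25-fold rise (log2 0.32, SE 0.07, adjusted p = 0.016). The groups were apart, and the call was lost when HA-NUR77 replicate 1 (adjusted p = 0.0562) or GFP replicate 1 (0.0585) was left out. Grpel1, which releases nucleotide from mitochondrial HSP70, was at 66.7, 68.4 and 68.5 CPM against 50.8, 54.6 and 55.8 CPM and rose 1.26-fold (adjusted p = 0.0105). Its paralog Grpel2 was at 26.5 to 27.1 CPM with HA-NUR77, inside the GFP range of 24.0 to 28.1 CPM (log2 fold change 0.01, 95% interval −0.19 to 0.21). Timm44, the scaffold of the motor, had 46.4, 49.3 and 53.4 CPM against 45.4, 41.8 and 42.2 CPM (log2 0.20, adjusted p = 0.092; 0.0351 with the block). The J-domain pair Dnajc19 and Pam16 had log2 fold changes of 0.18 and 0.24 and no call with or without the block. Their groups overlapped, at 15.8 to 17.7 CPM against 13.9 to 16.0 CPM for Dnajc19 and 11.6 to 13.9 CPM against 9.96 to 12.4 CPM for Pam16.

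Of the partners in the matrix chaperonin, Hspe1 rose and Hspd1 did not pass. Hspe1, the HSP10 lid, was at 75.9, 74.9 and 65.1 CPM with HA-NUR77 and at 56.8, 58.9 and 57.1 CPM with GFP, a 1.25-fold rise (log2 0.32, SE 0.08, adjusted p = 0.0215). HA-NUR77 replicate 3 was the low library of its group, and the call held in 1 of 6 fits without a library, that without it. In the other 5 fits the adjusted p was 0.0873 and 0.0519 without HA-NUR77 replicates 1 and 2 and 0.0774, 0.054 and 0.0513 without GFP replicates 1, 2 and 3. Hspd1, the HSP60 barrel, had 196.4, 183.5 and 192.9 CPM against 192.2, 185.9 and 173.1 CPM. Its groups overlapped, and the change was 1.04-fold with a 95% interval from 0.93 to 1.16. GENCODE lists 5 pseudogenes named after Hspd1 and 6 named after Hspe1, so both counts are uncertain. The NBRE letters printed above lie 49 bases before the RefSeq start of Hspe1.

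Of the 2 processing peptidase genes 0 passed in edgeR, DESeq2 or limma-voom, and at an unadjusted p under 0.05 the counts were 0, 0 and 1. Pmpca, the subunit that recognises presequences, had 168.8, 176.5 and 181.7 CPM with HA-NUR77 and 139.4, 155.7 and 166.9 CPM with GFP (log2 fold change 0.19, adjusted p = 0.125; 0.012 with the block). The lowest HA-NUR77 library was just above the highest GFP library. Of its exon bases, 20.4% are also those of Inpp5e on the opposite strand, which had a log2 fold change of −0.28 (adjusted p = 0.0381). Pmpcb, the catalytic subunit, was at 73.7, 79.7 and 80.3 CPM against 76.0, 76.2 and 74.6 CPM, with overlap and a log2 fold change of 0.04.

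Of the cristae genes, both prohibitins and a core MICOS subunit rose. Phb (chromosome 11, 95666957 to 95680773), which forms rings in the inner membrane with PHB2, had 50.6, 55.6 and 51.8 CPM with HA-NUR77 and 32.1, 36.6 and 38.4 CPM with GFP. It rose 1.48-fold (log2 0.56, SE 0.09, adjusted p = 0.00451), second to Tomm5 among the members that passed. Under the length and GC offsets Phb was at 0.52, above Tomm5 at 0.42. Phb2 was at 112.7, 122.1 and 121.2 CPM against 92.2, 93.2 and 94.9 CPM and rose 1.27-fold (adjusted p = 0.00851). Chchd3, the MIC19 subunit that links MICOS to the outer membrane (chromosome 6, 32790976 to 33060260), was at 118.0, 116.6 and 108.9 CPM against 85.4, 87.1 and 85.5 CPM, a 1.33-fold rise (log2 0.41, SE 0.06, adjusted p = 0.00413). All 3 genes had groups that were well apart. Immt, the large MIC60 subunit, lay just outside the threshold (225.9 to 245.9 CPM against 189.0 to 210.8 CPM; log2 fold change 0.23, adjusted p = 0.0519) and passed with the block (adjusted p = 0.00514). With the length and GC offsets its log2 fold change was 0.46 (adjusted p = 0.00915). Chchd6, the MIC25 paralog of Chchd3, stood at 7.70 to 9.34 CPM against 7.28 to 7.77 CPM, with overlap (adjusted p = 0.245).

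The SAM barrel protein rose while the metaxins did not pass. Samm50, which folds barrel proteins into the outer membrane (chromosome 15, 84192241 to 84217267), was at 118.3, 124.3 and 131.0 CPM with HA-NUR77 and at 96.7, 96.8 and 100.0 CPM with GFP. It rose 1.27-fold (log2 0.35, SE 0.07, adjusted p = 0.0094), with tight control libraries and no overlap. Mtx2 had 57.3, 54.7 and 58.4 CPM against 49.8, 49.9 and 51.1 CPM, apart but not past the threshold (log2 0.18, adjusted p = 0.0747; 0.0286 with the block). Mtx1 had 14.1, 17.9 and 15.5 CPM against 14.8, 19.7 and 15.6 CPM, with replicate 2 the highest in both groups (log2 fold change −0.08, 95% interval −0.40 to 0.25). Of the exon bases of Mtx1, 30.1% lie in genes on the opposite strand, among them Thbs3, which fell by 0.84 on the log2 scale (adjusted p = 0.00793).

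Whether partners kept their proportion was examined as the log2 ratio of counts per kilobase in each library, over 10 pairs. In 4 pairs the groups did not overlap: Timm17a to Timm17b, Grpel1 to Grpel2, Hspd1 to Hspe1 and Phb to Phb2. For the levels of single genes, groups did not overlap in 23% of all genes tested with HA-NUR77 above GFP and in 22.5% below. No such share was computed over ratios. The Timm17a to Timm17b ratio was 0.987 in GFP and 0.837 with HA-NUR77, a difference of −0.24 in log2 ratio. With the length and GC offsets, the log2 fold changes of Timm17a and Timm17b were 0.13 and 0.16, against 0.01 and 0.25 without them. The Grpel1 to Grpel2 ratio went from 3.85 to 4.83 (difference 0.33), that of Hspd1 to Hspe1 from 1.78 to 1.48 (difference −0.26) and that of Phb to Phb2 from 0.505 to 0.588 (difference 0.22). Each had p = 0.1 in a two-sided exact permutation test, the smallest p that 3 libraries against 3 can give, and 0.25 after adjustment over the 10 pairs. This test therefore cannot pass a threshold of 0.05 here. Under the length and GC offsets, the log2 fold changes of Grpel1 and Grpel2 were 0.29 and 0.06. Those of Hspd1 and Hspe1 were −0.0063 and 0.23, and those of Phb and Phb2 0.52 and 0.32. In the other 6 pairs the groups overlapped, and the exact permutation p ran from 0.2 to 0.3. Compared within same-numbered libraries, a choice made after seeing the data, 8 of the 10 ratios differed in the same direction in all 3 numbers. Among them were 4 whose groups overlapped: Tomm40 to Tomm22, Pmpca to Pmpcb, Chchd3 to Chchd6 and Mtx1 to Mtx2. For the 4 pairs without overlap, the same direction in all 3 numbers follows from the lack of overlap. Each of the 8 had p = 0.25 in an exact sign-flip test, the smallest that 3 differences can give. The Mtx1 to Mtx2 log2 ratio, for instance, differed by −0.28, −0.27 and −0.20 in numbers 1, 2 and 3. Tomm40 to Tomm22, for example, differed by −0.14, with per-library values from −3.03 to −2.79 with HA-NUR77 and from −2.84 to −2.74 in GFP.

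**Figure D4:**
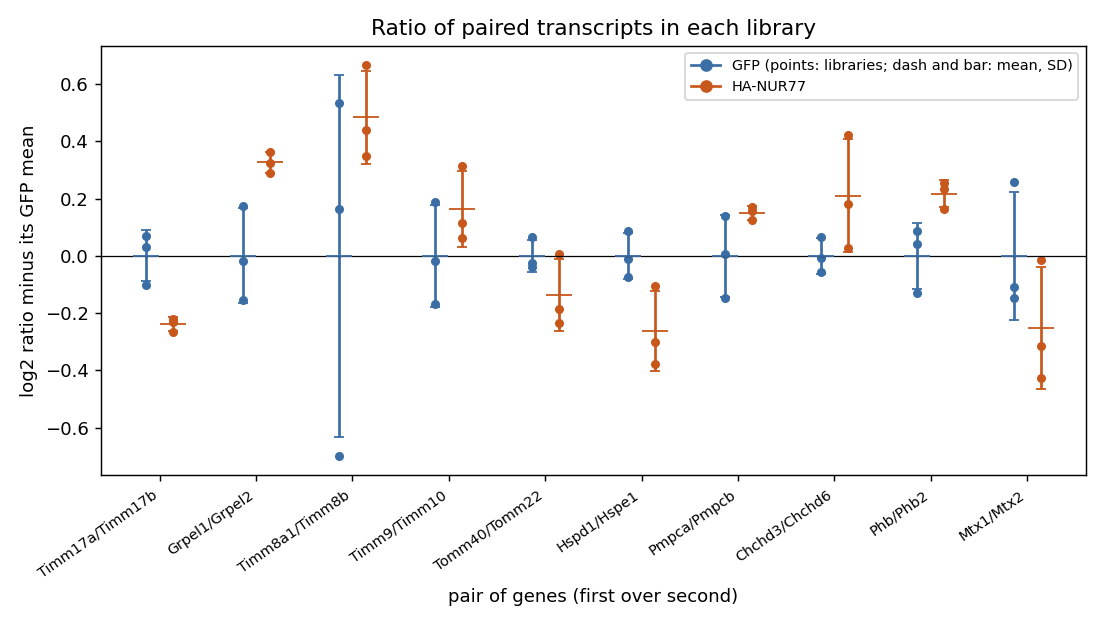
Points are the log2 ratio of 2 transcripts in 1 library, set against the GFP mean of that pair, with the mean and SD of each group of 3. The HA-NUR77 points lie wholly below GFP for Timm17a/Timm17b and Hspd1/Hspe1, wholly above for Grpel1/Grpel2 and Phb/Phb2, and overlap for the other 6 pairs.

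Fold change varied with transcript length among the members. Over the 38 genes, the log2 fold change and the log2 exon length had a Pearson correlation of −0.41 (Spearman −0.47), and over 12450 tested genes with a length the values were −0.17 and −0.24. These are correlations across genes measured in the same 6 libraries, given as a description. Members at or under the median length of 3356 bases had a median log2 fold change of 0.32, and longer ones 0.19. With offsets for length and GC content, 15 members were higher and 0 lower, and the median was 0.21 against 0.04 over all genes. Of all genes tested with these offsets, 14.6% were higher and 11.5% lower. In that fit Timm10 and Hspe1 (log2 fold change 0.23, adjusted p = 0.0805) were not past the threshold, and Tomm70a (0.37, adjusted p = 0.00614) and Immt were.

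**Figure D5:**
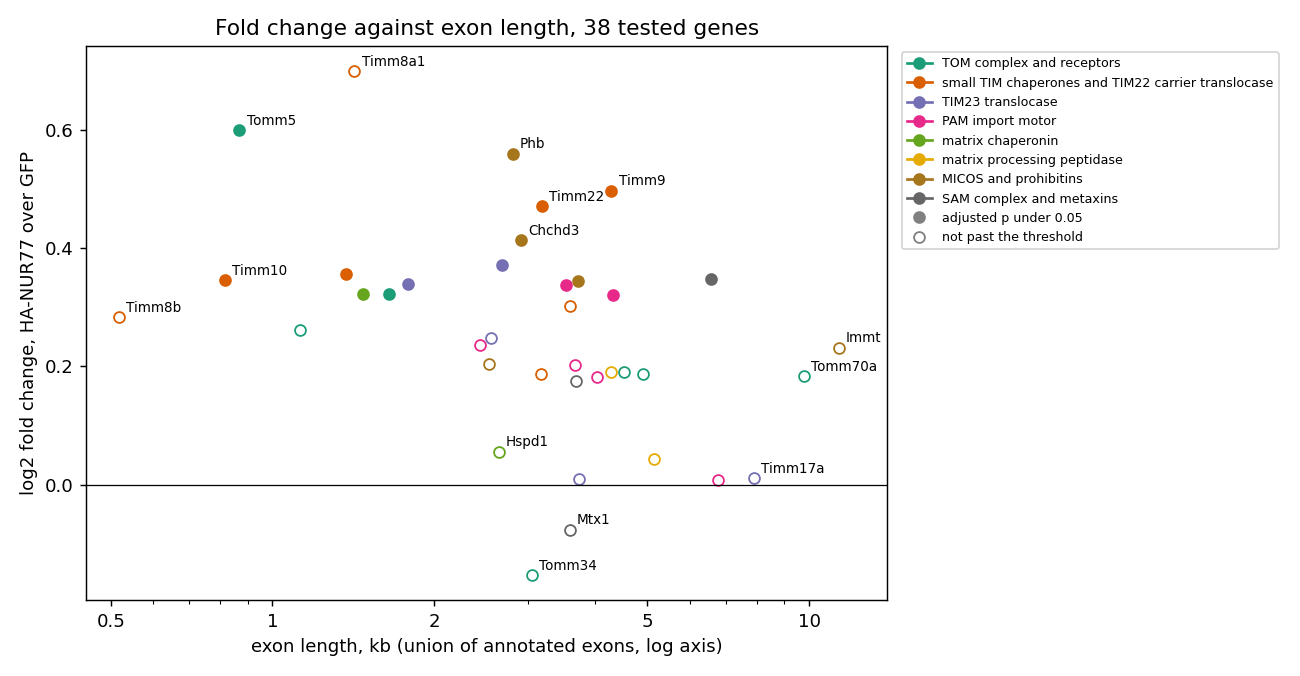
Each point is 1 of the 38 tested genes, with exon length on a log axis and the fitted log2 fold change on the vertical axis; filled points passed an adjusted p of 0.05. Tomm5 and Timm8a1 lie among the short transcripts with high values, and Timm17a among the long ones near 0.

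The letters CCGGAAG were found in members that rose and in members that did not pass. Of the 14 members that rose and have a window, 7 held CCGGAAG: Tomm22, Timm10, Timm23, Grpel1, Hspe1, Chchd3 and Phb2. Of the 20 tested members with a window that did not pass, 11 held it. The median log2 fold change was 0.26 with the letters and 0.30 without them. The members with the longer YY1 motif were Timm50, which rose, and Mtx1, which did not pass.

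Other genes of the same route, from a list of 33 of which 32 were tested, were called in both directions. There were 8 higher, 2 lower and 22 not past the threshold, with a median log2 fold change of 0.18, where 12.4% of all genes tested were higher and 13.2% lower. Chchd4, the oxidoreductase that traps small TIM proteins in the intermembrane space, rose 1.49-fold, from 16.2 ± 1.86 to 24.2 ± 1.99 CPM (SD, n = 3; adjusted p = 0.0103). The MICOS subunit 2410015M20Rik, now named Micos13, rose 1.40-fold (adjusted p = 0.00461). Smaller rises were those of the rhomboid protease Parl (1.31-fold), the matrix cochaperone Dnaja3 (1.28-fold), the prohibitin partner Stoml2 (1.27-fold) and the insertase Oxa1l (1.19-fold). The other 2 rose 1.17-fold and 1.24-fold. Pitrm1, which degrades cleaved presequences, was at 89.2, 94.2 and 78.1 CPM with HA-NUR77 and at 136.5, 134.3 and 112.5 CPM with GFP. It fell by 0.55 on the log2 scale (SE 0.10, adjusted p = 0.00907), opposite in sign to the called members. Mtx3, the third metaxin, fell by 0.39 (adjusted p = 0.0408). With the block 15 were higher and 3 lower, against 23.5% and 24.6% of all genes, and in the fits without 1 library 2 to 7 were higher and 1 or 2 lower. The count higher was 2 without GFP replicate 2, 3 when either HA-NUR77 replicate 1 or GFP replicate 1 was left out, 4 when HA-NUR77 replicate 3, 5 when GFP replicate 3 and 7 when HA-NUR77 replicate 2 was left out. The count lower was 2 without HA-NUR77 replicate 3 and 1 in the other 5 fits. Of all genes tested in the fits without 1 library, 5.09% to 11.7% were higher and 6.74% to 12.3% lower. Without GFP replicate 2 these shares were 7.27% and 9.8%.

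The cytosolic counterpart of HSP60 was set beside these genes. Of the 8 subunits of TRiC, the chaperonin that folds actin and tubulin, 4 rose and 0 fell in edgeR (6 and 0 at an unadjusted p under 0.05, 6 and 0 in DESeq2, 4 and 0 in limma-voom), and the median log2 fold change was 0.27. Of all genes tested 12.4% were higher at the adjusted p in edgeR, and with the block 7 of the 8 subunits were higher against 23.5%. Cct3 rose 1.25-fold, Cct2 1.24-fold and Cct5 1.21-fold. Of 10 other chaperones of the cytosol and endoplasmic reticulum, among them Hspa8, Hsp90ab1 and Hspa5, 0 passed in edgeR, DESeq2 or limma-voom (at an unadjusted p under 0.05, 0, 1 and 0) and the median was 0.06. With the block 3 of these 10 were higher.

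Muscle differentiation genes moved in the same libraries. Of 15 such markers, 4 rose (Myh8, Myh3, Tnni2 and Tnnc2) and Myh1 fell, where 12.4% of all genes tested were higher and 13.2% lower. With the block 10 were higher and 3 lower, against 23.5% and 24.6%. The summed level ran from 21680 to 26360 CPM with HA-NUR77 and from 15100 to 22040 CPM with GFP. None of the 15 was at 0. The 2 ranges overlap, and in each same-numbered pair the HA-NUR77 library was the higher: 21680 against 15100, 21890 against 16910 and 26360 against 22040 CPM. Of 5 myoblast markers 1 rose, Cdh15 (M-cadherin), with 3 higher and 1 lower, Myf5, under the block. Their sum ran from 3786 to 4461 CPM against 2568 to 3432 CPM, without overlap. Most of that sum was Des, at 2500 of 3050 CPM on average in GFP, which did not pass (edgeR adjusted p = 0.0872). Fitted log2 fold changes were above 0 for 3 of the 5 and below 0 for Myf5 (−0.23) and Pax7 (−0.28). Of 6 fibroblast markers, 4 were tested. Pdgfra and Col3a1 fell, and Dcn and Twist2 did not pass, with log2 fold changes of 0.12 and 0.16. The sum of the 6 ran from 5094 to 5920 CPM against 6845 to 8366 CPM. Most of it was Col3a1, at 6978 of 7366 CPM on average in GFP, and Thy1 was at 0 in all libraries. The part of these shifts in the import genes was not tested. In such bulk samples, a different mix of cells and a different amount of transcript per cell cannot be told apart.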

How the data were processed

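Polyadenylated RNA from 6 cultures of C2C12 cells (3 HA-NUR77, 3 GFP) was sequenced from stranded libraries made from 1000 ng of RNA with 12 PCR cycles, per the labels' protocols. Each library has 1 deposited table of raw counts, listed by Ensembl gene; the submitters' processing notes name TopHat2 2.1, HTSeq, DESeq2 and build mm10, and the annotation release and strand setting are not given in the sources used here. Reads of near-identical or overlapping genes can be lost or split in such counts.

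Genes were filtered with filterByExpr (minimum count 10) and tested with edgeR 4.0.16 in R 4.3.3 (TMM factors, robust quasi-likelihood fit, group as the only term), with Benjamini-Hochberg adjustment over 12509 genes and a threshold of 0.05. CPM were computed from the counts with TMM-adjusted library totals, and each SE is the size of the log2 fold change over the square root of F. Alternatives were DESeq2 1.42.0, limma-voom (limma 3.58.1), other scalings and filters, offsets for exon length and GC content, a replicate block, and leaving out each library. Same-numbered libraries deviated together across genes (correlations 0.25, 0.55 and 0.47 for numbers 1, 2 and 3, each over 0.1). No label states such a pairing. The main calls, SEs, intervals and adjusted p took no account of it, nor did the exact permutation test of the ratios. Pairing entered only through the blocked alternatives and the sign-flip test. Blocked values stand beside each member whose call they change. No pair of replicates matched within sampling noise (lowest chi-square per degree of freedom 11.4). P-values measure the spread between dishes of 1 line per construct.

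The members, lists, pairs and tests were chosen with earlier results of these data known. In each role the 3 members with the smallest adjusted p and the most abundant per kilobase were given in every library. Other members are given by the range of their levels. Sequences are RefSeq promoter windows on GRCm38.p6, matched by symbol for 35 of 39 members. The 2 genes that share exon bases with Pmpca and Mtx1 were added after their overlap was seen, and the printed promoter stretches and the motifs were chosen with the values known.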

Additional observations from a re-analysis of the deposited data

How the results depend on the processing

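The count of 15 members higher was 14 to 17 with other scalings, filters, DESeq2 or limma-voom, 27 with the replicate block, and 22 with the block and the length and GC offsets, where 1 member, Tomm34, was lower. Of all genes tested, 7.66% to 14.1% were higher with the other scalings, filters and tools, and 23.5% with the block. With the block and the offsets 27.3% were higher and 20.8% lower. Leaving out 1 library at a time gave 9 to 14 members higher and 0 lower. In those fits 5.09% to 11.7% of all genes tested were higher and 6.74% to 12.3% lower. The median log2 fold change of the members was 0.21 with the offsets, with or without the block, and 0.23 to 0.30 in the fits without 1 library. For the other import, protease and cristae genes, the block gave 15 higher, also with the offsets, and the offsets alone gave 1 lower, against 11.5% of all genes. The fits without 1 library gave 2 to 7 higher and 1 to 2 lower. The cause of these shifts was not tested. Tomm5, Tomm22, Timm22, Timm23, Grpel1, Chchd3, Phb, Phb2 and Samm50 passed in all 16 alternatives run. Values that changed sign belong to members near 0. With the offsets Hspd1 was at −0.0063 and Mtx1 at 0.0383, and with block and offsets −0.0056 and 0.0335. Without 1 library, Timm17a ran from −0.0091 to 0.039, Timm21 from −0.0922 to 0.0678, Grpel2 from −0.0615 to 0.046 and Mtx1 from −0.177 to 0.0578. A sign-flip test within replicate numbers was added after seeing the data. Its smallest possible p with 3 differences is 0.25, so it could not pass 0.05 for any ratio. No difference in the ratio of paired members changed sign without 1 library. Exon length cancels from these differences between groups, so leaving out the division by length could not change them. At 1.57 CPM in GFP, few reads limit Timm8a1.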

Other observations

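Genes known to respond to mitochondrial and amino acid stress were mostly not past the threshold. Of 8 such genes, 1 rose, a share near the 12.4% of all genes tested, and 0 fell in the edgeR test (without adjustment of p, 2 and 0), and DESeq2 and limma-voom gave the same counts, 1 and 0. Asns, asparagine synthetase, rose from 36.1 to 64.0 CPM on average (log2 fold change 0.83, SE 0.19, adjusted p = 0.0183). The transcription factors Atf4 and Atf5, singled out after the values were seen, which are known to drive chaperone and protease genes under mitochondrial stress, had log2 fold changes of 0.14 and −0.06 (adjusted p = 0.373 and 0.805). With the replicate block 4 of the 8 were higher, against 23.5% of all genes, and these were Asns, Trib3, Chac1 and Ddit3. Without the block Trib3, Chac1 and Ddit3 did not pass (log2 fold changes 0.57, 0.39 and 0.32). Gdf15 and Fgf21 did not pass with or without it (0.09 and −0.47 without).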
